A study of Mus musculus with 18 samples.

Results

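Heme given before endotoxin was compared with endotoxin alone in wild-type macrophages, on 6 of the 18 arrays of the study. The macrophages were grown from the bone marrow of mice aged 8 to 10 weeks, in M-CSF at 10 ng/ml for 7 days. The heme and LPS group (3 arrays, lettered a to c) held Nrf2+/+ cells that had 200 µM heme bound to albumin for 4 h and then LPS at 10 ng/ml for 4 h. The LPS group (3 arrays) held Nrf2+/+ cells with 4 h of LPS. For comparison there were Nrf2-/- macrophages with heme and LPS (5 arrays) or with LPS (4 arrays), and Nrf2+/+ macrophages with 4 h of albumin that carried no heme (3 arrays). The treatment protocol names albumin alone as the alternative to heme-albumin before LPS, but the labels of the LPS arrays name LPS only. Whether those cells had albumin first is therefore not given, and time in culture can differ between the groups together with heme. Replicates were independent biological samples by the design text.

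Each array set 1 sample (Cy5 dye) against RNA of untreated macrophages (Cy3 dye), whose genotype is not given. Values here are log2 ratios of sample over that reference, so that 1 unit is 2-fold and 0 is the level of the reference; a ratio gives no level of one gene relative to another. Differences are heme and LPS minus LPS, with the standard error (SE) of a limma fit over all 18 arrays. A gene was called, and is said to have risen or fallen, at a Benjamini-Hochberg adjusted p under 0.05 over 22485 genes.

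Heme, the iron-bearing group of hemoglobin, reaches macrophages when they clear red cells. Heme oxygenase opens the ring and frees iron, which is stored in ferritin or leaves through ferroportin. Heme and other electrophilic or oxidant stress free the transcription factor NRF2 (gene Nfe2l2) from its inhibitor KEAP1, and NRF2 then binds antioxidant response elements in genes of glutathione, thioredoxin and detoxification. LPS signals through TLR4, by MYD88 to NF-kB and by TRIF to interferon beta, whose receptor acts through STAT and IRF factors on interferon-stimulated response elements.

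Promoter windows of genes that moved with heme are shown first, since both response elements have known letters. The windows are from RefSeq on GRCm38.p6, run from 250 bases before to 50 bases after a start, and were at hand for 16971 of the genes tested. The genes shown here and below were chosen among those with a match. Some genes that fell, such as Fgl2 and Irf8, held the antioxidant letters too. Capitals mark matches to TGACNNNGC or its other strand GCNNNGTCA, the core of the antioxidant response element, in 5 genes that rose, each printed with 30 bases on either side and written 5′ to 3′ on the strand of the gene.
Gclm (chr3:122245393-122245461, + strand): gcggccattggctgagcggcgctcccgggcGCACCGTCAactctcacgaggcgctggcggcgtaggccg
Txnrd1 (chr10:82859084-82859152, + strand): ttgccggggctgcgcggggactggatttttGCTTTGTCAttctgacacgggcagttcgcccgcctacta
Prdx1 (chr4:116685436-116685504, + strand): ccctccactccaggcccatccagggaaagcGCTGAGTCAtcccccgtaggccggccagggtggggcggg
Gsta3 (chr1:21240434-21240502, + strand): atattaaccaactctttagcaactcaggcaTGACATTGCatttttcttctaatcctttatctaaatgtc
Abcc4 (chr14:118706206-118706274, - strand): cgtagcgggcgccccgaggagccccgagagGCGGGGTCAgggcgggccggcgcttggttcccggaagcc

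In 4 genes that fell, capitals mark matches to GAAANNGAAA or its other strand TTTCNNTTTC, the core of the interferon-stimulated response element. The Gbp3 window holds 2 overlapping matches.
Gbp3 (chr3:142559969-142560044, + strand): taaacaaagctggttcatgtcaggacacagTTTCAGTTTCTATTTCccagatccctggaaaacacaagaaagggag
Calhm6 (chr10:34127997-34128066, - strand): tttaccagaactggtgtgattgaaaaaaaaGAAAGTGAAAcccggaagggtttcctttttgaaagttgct
Ifi214 (chr1:173535997-173536066, - strand): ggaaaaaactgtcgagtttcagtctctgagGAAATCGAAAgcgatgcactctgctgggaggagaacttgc
Myd88 (chr9:119340019-119340088, - strand): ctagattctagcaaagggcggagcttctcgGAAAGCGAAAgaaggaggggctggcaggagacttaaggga

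The interferon letters stood in a window of 10.3% of the genes that fell (116 of 1122) and of 21.0% of those that fell by over 2 units (57 of 271), against 3.90% of all genes (662 of 16971). Of the genes that rose 2.31% held them (35 of 1514). The antioxidant letters were common, at 15.1% of all genes (2560), and stood in 17.9% of the genes that rose (271) and 21.3% of those that rose by over 2 units (47 of 221). They stood in 16.3% of the genes that fell (183) and 18.1% of those that fell by over 2 units (49), so that both directions held them somewhat more often than all genes. A match is a description of letters, not a binding site or a cause, and a gene counted where any of its windows held one.

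Heme before LPS moved 3303 genes, 14.7% of all genes tested. It raised 1876 (8.34%) and lowered 1427 (6.35%), with a median rise of 1.05 and a median fall of -1.30 among the called genes. Counts of called genes in the lists below are to be read against these 2 shares. The median difference over all genes was 0. Of the genes that rose 276 did so by over 2 units and 32 by over 4, and of those that fell 359 and 53 did. The 3 arrays of each group did not overlap for 1837 of the genes that rose and 1402 of those that fell, and for 24.2% of all genes (5452). Fitted on the 6 arrays alone, which then alone give the spread, 902 genes rose and 643 fell, and 43 of the 144 called genes named here were not called. Slc40a1, Il10, Il12b, Ifnb1, Irf7, Usp18, Gbp3, Cxcl5, Clec7a, Mcm6 and Acta2 were among those not called there. For the genes just listed the limma adjusted p ran from 0.0519 (Cxcl5) to 0.188 (Il12b).

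The arrays of one group were not alike. Between 17.9% and 46.4% of the features of the 6 arrays were listed at exactly 0, and array a was the highest in both groups. Pairs of heme and LPS arrays correlated over genes at 0.64 to 0.80, pairs of LPS arrays at 0.79 to 0.87. Heme and LPS array a stood apart in several lists, with higher ratios of interferon-response and stress genes than arrays b and c. Its macrophage marker median was lower (-0.98, against 0.01 and 0.04). LPS array a was likewise the highest of its group in interferon lists, as for guanylate-binding proteins (median 4.62, against 3.19 and 3.28). Values are therefore given by array, and what set the arrays lettered a apart was not tested. Of 13 macrophage markers measured 5 fell and 0 rose (1 without heme and LPS array a), and their linear ratios summed to 9.44 to 14.3 with heme and LPS, against 20.9 to 26.7 with LPS and 10.8 to 10.9 with albumin; every marker is a ratio to macrophage RNA, so these values cannot show how much of a marker the cells held. Fewer cells of a type and less RNA per cell cannot be told apart in such bulk samples.

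Heme before LPS raised some of the genes that break heme down and carry it. Hmox1, which encodes the inducible heme oxygenase, stood at 4.47, 3.85 and 4.28 on the heme and LPS arrays a to c, against -1.12, -0.51 and -0.51 on the LPS arrays. It thus rose by 4.91 ± 0.34 (30.1-fold, limma adjusted p = 6.44e-07), and its LPS values lay near those of the albumin arrays (-0.87 to -0.81). Hmox2, the constitutive heme oxygenase gene, moved the other way: -1.86, -1.48 and -1.66 with heme and LPS against -0.28, -0.29 and -0.17 with LPS (-1.42 ± 0.13, limma adjusted p = 5.19e-06). Blvrb, whose product reduces biliverdin, the next compound of the pathway, rose by 1.48 ± 0.20. Slc48a1, the gene of the transporter that carries heme out of the phagolysosome, stood at 1.49, 1.50 and 1.46 with heme and LPS against -1.90, -1.15 and -1.31 with LPS, with albumin arrays at 0.06 to 0.08. Its rise of 2.94 ± 0.19 was even across the 3 heme arrays. In the list of heme breakdown and transport 3 of 13 genes rose and 1 fell. Of 8 heme synthesis genes 2 rose, Fech, the ferrochelatase that puts iron into the ring (1.43 ± 0.17), and Slc25a38, a mitochondrial glycine carrier gene (1.26 ± 0.20); 1 fell, but not without heme and LPS array a.

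Among iron genes the exporter and the stores rose and the importer fell. Slc40a1, ferroportin, stood at 0.56, 3.68 and 3.19 with heme and LPS against -5.01, -2.55 and -2.57 with LPS, and near the reference on albumin arrays (-0.24 to -0.16). Array a of each group was the lowest, the groups did not overlap, and the rise was 5.85 ± 0.84 (57.8-fold). On the 6 wild-type arrays alone Slc40a1 was not called (limma adjusted p = 0.0626). Ftl1 and Fth1, the ferritin light and heavy chains, rose by 1.51 ± 0.12 and 0.76 ± 0.13. Slc11a1, an iron pump of the phagosome membrane, had 1.37, 1.21 and 1.35 with heme and LPS, against -0.71, -0.19 and -0.22 with LPS (1.68 ± 0.23). Tfrc, the transferrin receptor through which iron enters, had -2.27, -2.54 and -1.67 with heme and LPS, against -0.45, -0.01 and -0.45 with LPS. Its fall was -1.86 ± 0.31 (limma adjusted p = 0.000841) as a mean of 12 probes that ranged from -2.46 to -0.24; the 1 probe with the largest ratios gave -1.41 and no call (adjusted p = 0.398). In all 4 of 19 iron genes rose and 3 fell, 1 without LPS array b. Spic, which encodes a factor that red pulp macrophages need to recycle iron, had 3.59, 5.76 and 6.12 with heme and LPS against -0.07, 1.16 and 0.89 with LPS, again lowest on array a.

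**Figure D1:**
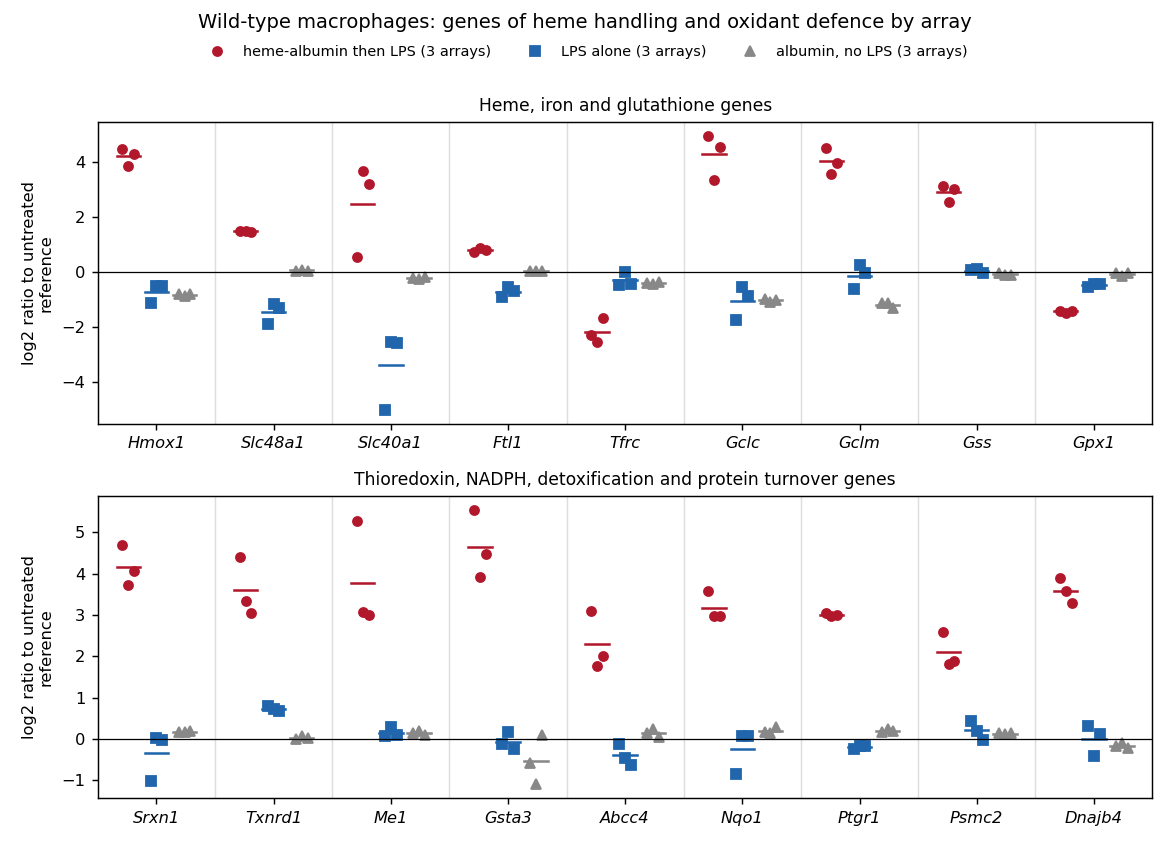
Log2 ratio to the untreated reference (vertical axis) of 18 genes on each wild-type array; red circles are heme-albumin then LPS, blue squares LPS alone, grey triangles albumin without LPS, and lines are means of 3 arrays. Circles lie above squares for every gene but Tfrc and Gpx1, where they lie below; Hmox1 has circles at 3.85 to 4.47 and squares at -1.12 to -0.51.

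Nfe2l2 itself rose by 0.94 ± 0.19 (limma adjusted p = 0.00394), with 0.13, 1.0 and 0.80 on the heme and LPS arrays and -0.59, -0.45 and 0.16 on the LPS arrays, so that array a with heme overlapped the LPS group. With values of 0 taken as missing it was not called (limma adjusted p = 0.0699), nor on the 6 wild-type arrays alone (0.208). All 9 knockout arrays listed the gene at 0, which narrows the spread that the main fit shares between groups. Mafg, a small Maf gene whose product pairs with NRF2 on DNA, had 1.81, 1.50 and 1.77 with heme and LPS against -1.13, -0.75 and -0.78 with LPS. Sqstm1, which encodes p62, a carrier of cargo to autophagy that also binds KEAP1, rose by 1.65 ± 0.28. Of 11 regulators and partners of NRF2 3 rose and 0 fell, or 1 without heme and LPS array a.

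Glutathione is made from cysteine in 2 steps, and genes of both steps rose. Gclc, the catalytic subunit of the first enzyme, had 4.95, 3.35 and 4.52 with heme and LPS, against -1.73, -0.53 and -0.87 with LPS (5.32 ± 0.48). Its modifier subunit Gclm had 4.51, 3.57 and 3.97 with heme and LPS, against -0.61, 0.27 and -0.05 with LPS (4.14 ± 0.40). Gss, the enzyme of the second step, stood at 3.12, 2.55 and 3.03 with heme and LPS, against 0.06, 0.11 and -0.05 with LPS (2.86 ± 0.14, limma adjusted p = 6.15e-08). All 3 genes lay at or below the reference on LPS and albumin arrays, apart from small positive values of Gclm and Gss with LPS. Slc7a11, which imports cystine, stood at 7.66, 8.05 and 9.09 with heme and LPS, against 0, 4.59 and 3.59 with LPS; the call (limma adjusted p = 0.0139) was lost without heme and LPS array c (0.0549) or LPS array a (0.0739), the array where it was listed at exactly 0. Gpx1, a peroxidase that uses glutathione, fell by 0.95 with an SE of 0.09, to -1.40, -1.47 and -1.41 with heme and LPS, against -0.55, -0.42 and -0.45 with LPS. Over the 14 measured genes of glutathione and cystine import 6 rose and 1 fell (2 without heme and LPS array b), with a median difference of 2.05, where the median of all genes was 0.

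In the thioredoxin system 5 of 11 genes rose and 1 fell, a fall called in no fit that left out 1 of the 6 arrays other than LPS array a. Srxn1, sulfiredoxin, which repairs overoxidised peroxiredoxin, had 4.70, 3.73 and 4.07 with heme and LPS against -1.02, 0.02 and -0.03 with LPS. Txnrd1, thioredoxin reductase, had 4.39, 3.34 and 3.06 with heme and LPS against 0.78, 0.73 and 0.68 with LPS. Prdx1, a peroxiredoxin, stood at 3.58, 2.94 and 3.27 with heme and LPS, against 0.34, 0.60 and 0.25 with LPS, and rose by 2.87 ± 0.26. These reductases draw on NADPH. Me1, the malic enzyme that makes it in the cytosol, had 5.27, 3.07 and 2.99 with heme and LPS against 0.08, 0.28 and 0.09 with LPS, a rise of 3.62 ± 0.47 with array a the highest. In the pentose phosphate pathway Taldo1 (transaldolase) rose by 2.13 ± 0.21, Pgd (phosphogluconate dehydrogenase) by 1.31 ± 0.12 and Tkt (transketolase) by 0.62 ± 0.12, each with no overlap between groups. Of 10 NADPH-making enzymes 4 rose and 1 fell, the fall not being called without array b of either group, LPS array a or heme and LPS array c. Sod1, the cytosolic superoxide dismutase, and Cat, catalase, rose by 1.60 ± 0.23 and 1.58 ± 0.24, and were the 2 of 9 superoxide and peroxide enzymes that rose.

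Detoxification genes rose as a broad group. Of 23 glutathione transferases and efflux pumps 14 rose and 0 fell, with a median difference of 1.15, and 10 to 14 rose whichever 1 array was left out. Gsta3, a glutathione transferase that couples glutathione to electrophiles, had 5.55, 3.92 and 4.47 with heme and LPS, against -0.13, 0.17 and -0.23 with LPS (4.71 ± 0.44, 26.2-fold). Gsta1, of the same class, had 2.48, 2.25 and 3.22 with heme and LPS, against 0, 0.55 and 0 with LPS; its probe and that of close paralogs can share targets. The pumps Abcc4 and Abcc1, which carry conjugates out of the cell, rose by 2.69 ± 0.31 and 2.21 ± 0.21. Abcc4 had 3.10, 1.75 and 2.00 with heme and LPS, against -0.12, -0.45 and -0.63 with LPS, and Abcc1 2.98, 2.25 and 2.35 with heme and LPS, against 0.53, 0.16 and 0.25 with LPS. No array of one group reached the other group in either pump.

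Of 15 quinone and carbonyl detoxification genes 7 rose and 1 fell. Nqo1, which reduces quinones with NADPH, had 3.57, 2.98 and 2.98 with heme and LPS, against -0.86, 0.06 and 0.07 with LPS (10.7-fold). Ptgr1, a reductase of prostaglandins and leukotriene B4, stood at 3.04, 2.97 and 3.00 with heme and LPS, against -0.25, -0.17 and -0.16 with LPS. Its rise of 3.20 ± 0.12 had the narrow spread of both groups behind it (limma adjusted p = 2.52e-09). Aox1, aldehyde oxidase, had 3.22, 4.15 and 4.65 with heme and LPS, against 0, 0 and -0.85 with LPS. Nqo2, a paralog of Nqo1, had -1.65, -0.50 and -0.68 with heme and LPS, against 0.60, 0.26 and 0.29 with LPS. It fell by 1.33 with an SE of 0.23, and by 0.87 with array a of every LPS-treated group dropped. Osgin1, an oxidative stress gene, had 1.87, 1.58 and 1.89 with heme and LPS, against -3.73, -2.14 and -2.67 with LPS, where albumin arrays stood at 0.51 to 0.60.

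Proteasome genes had the largest share of risers among the 34 lists plotted. Of 30 genes of the 20S core and the 19S regulator of the proteasome, the protease that degrades ubiquitin-tagged proteins, 24 rose and 0 fell. The list's median difference was 1.17, and 19 to 26 rose whichever 1 array was left out. The list median was 1.99, 1.07 and 1.23 on the heme and LPS arrays, against 0.43, 0.19 and 0.18 on the LPS arrays. Psmc2, an ATPase of the regulator, had 2.60, 1.81 and 1.89 with heme and LPS, against 0.43, 0.19 and -0.02 with LPS. Other parts of the regulator, Psmc6 (1.74 ± 0.22), Psmd3 (1.68 ± 0.22) and Psmd11 (1.68 ± 0.20) rose as well. The subunits of the immunoproteasome, described with antigen presentation below, fell in the same comparison. Of 14 autophagy and ubiquitin receptor genes 5 rose and 0 fell. Gabarapl1, of the family that coats autophagosomes, had 1.33, 1.99 and 2.07 with heme and LPS, against -2.0, -0.78 and -0.69 with LPS, and Ulk1, the kinase that starts autophagy, -0.01, 0.50 and 0.96 with heme and LPS, against -3.07, -1.17 and -1.19 with LPS.

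Chaperone and stress genes stood highest on array a. Of 19 heat shock and chaperone genes 6 rose and 0 fell. The list median was 2.00 on heme and LPS array a, against 0.44 and 0.48 on arrays b and c, and 0, -0.26 and -0.14 on the LPS arrays. Dnajb4, a co-chaperone gene, had 3.89, 3.59 and 3.30 with heme and LPS, against 0.31, -0.42 and 0.12 with LPS. Its rise of 3.59 ± 0.48 was also called without array a, and so was that of Hsf2, a heat shock transcription factor gene (2.77, 1.59 and 2.25 with heme and LPS, against -0.48, -0.13 and -0.29 with LPS). Hsph1, which encodes HSP110, rose with array a the highest, at 3.38, 1.08 and 1.31 with heme and LPS, against -0.68, -1.16 and -1.09 with LPS. Hsp90aa1, the inducible HSP90, was not called: 4.36, 1.0 and 1.04 with heme and LPS, against 0.84, -0.01 and 0.00 with LPS (1.86 ± 0.71, limma adjusted p = 0.108). Without heme and LPS array b it was called (adjusted p = 0.0484), and so it was when array a of all 4 LPS-treated groups was dropped (1.03, adjusted p = 0.0147). Chac1, a glutathione-degrading target of the factor ATF4, had 5.55, 1.58 and 0.83 with heme and LPS, against 1.23, -0.52 and -0.42 with LPS, and was not called (limma adjusted p = 0.109), but was without heme and LPS array c (adjusted p = 0.0345). Trib3, another ATF4 target, had 2.54, -0.35 and -0.57 with heme and LPS, against -1.08, -1.04 and -1.01 with LPS, and was not called. In the list of the integrated and ER stress response 4 of 27 genes rose, and 2 without LPS array a, where 8.34% of all genes tested rose.

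**Figure D2:**
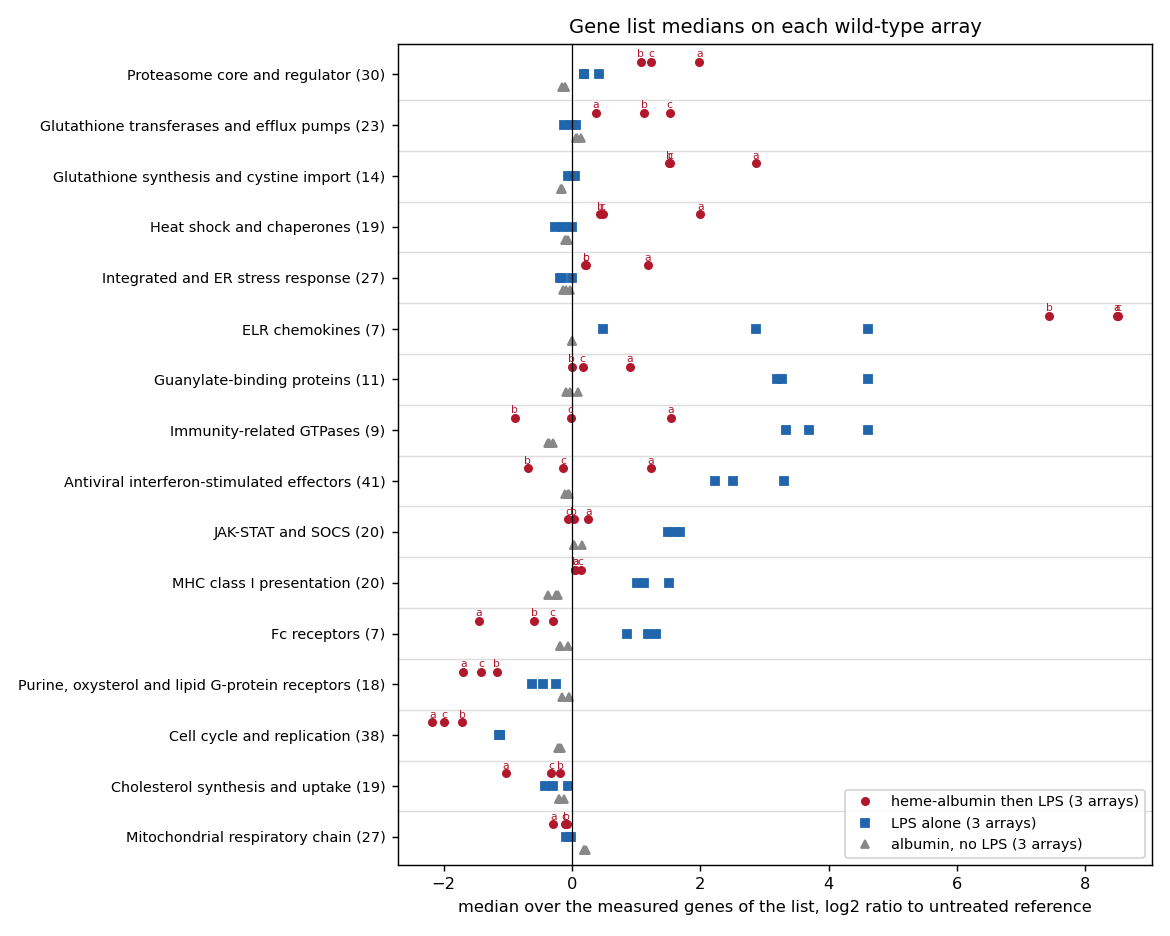
Median log2 ratio to the untreated reference (horizontal axis) over the measured genes of 16 lists, 1 point per wild-type array; the number of genes is in brackets and letters name the heme and LPS arrays. Proteasome medians are 1.07 to 1.99 with heme and LPS against 0.18 to 0.43 with LPS, while the lists of guanylate-binding proteins, immunity-related GTPases and antiviral effectors lie at -0.89 to 1.54 with heme and LPS against 2.23 to 4.62 with LPS, array a being the highest of each.

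Genes of the interferon response were lower with heme. Of 11 guanylate-binding protein genes 9 fell and 0 rose (median difference -3.76), and 8 or 9 fell whichever 1 array was left out. These GTPases attack the vacuoles of intracellular pathogens. The list median was 0.90, 0.00 and 0.17 on the heme and LPS arrays, against 4.62, 3.19 and 3.28 on the LPS arrays. Gbp11 had -2.40, -4.02 and -2.81 with heme and LPS, against 4.64, 2.82 and 3.28 with LPS, and Gbp9 -0.45, -1.78 and -1.68 with heme and LPS, against 4.55, 3.19 and 2.72 with LPS. Gbp3, whose window is shown above, had 4.19, 0.34 and 1.77 with heme and LPS against 7.23, 6.17 and 6.03 with LPS. Gbp11 and Gbp9 thus lay below the albumin arrays, which stood at -0.06 to 0.20 for these genes, and Gbp3 above them (0.02 to 0.15). Probes of this family can share targets, so that single members are uncertain.

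Immunity-related GTPases, another family that acts on pathogen vacuoles, fell in 8 of 9 genes (median difference -3.62), and in 7 or 8 whichever 1 array was left out. Iigp1 had 2.29, -0.89 and -0.80 with heme and LPS, against 6.79, 5.83 and 5.73 with LPS. Ifi47 had 1.54, -1.69 and -0.79 with heme and LPS, against 5.04, 3.69 and 3.33 with LPS. Albumin arrays lay at -0.56 to -0.37 for Iigp1 and at 0.22 to 0.34 for Ifi47, so that arrays b and c with heme and LPS were below them.

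Of 41 antiviral effectors induced by interferon 39 fell, with a median difference of -2.47. The count changed with the array left out: 19 fell without heme and LPS array b, 19 without LPS array a, 23 without heme and LPS array c, 25 without LPS array b, 32 without LPS array c and 38 without heme and LPS array a. The list median was 1.23, -0.69 and -0.13 on the heme and LPS arrays, against 3.30, 2.51 and 2.23 on the LPS arrays, which did not overlap. Slfn4, a Schlafen gene, had 2.37, -0.71 and -0.37 with heme and LPS, against 6.59, 5.24 and 4.05 with LPS. Cmpk2, a mitochondrial nucleotide kinase gene that interferon induces, had 4.67, -0.69 and 0.90 with heme and LPS, against 6.32, 5.74 and 5.59 with LPS (-4.26 ± 1.02). Fitted on the 6 wild-type arrays alone, Cmpk2 was not called (limma adjusted p = 0.211). Isg15, a ubiquitin-like modifier, had 4.41, 0.32 and 1.30 with heme and LPS, against 4.72, 3.83 and 3.59 with LPS, so that array a with heme lay inside the LPS group; it was not called (limma adjusted p = 0.178), but was without heme and LPS array a (-3.24, adjusted p = 0.00842). Ifit1bl1 and Ifi214, of the IFIT and p200 families, were among the 15 largest falls and stood at -1.86 to 2.01 and -1.21 to 1.62 with heme and LPS, against 6.17 to 6.70 and 5.13 to 6.60 with LPS.

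Upstream of these effectors, 10 of 15 genes of interferon beta, its receptors and the IRF factors fell and 0 rose, and 6 fell without LPS array a. Ifnb1, interferon beta, had 4.76, 3.12 and 3.68 with heme and LPS, against 5.38, 7.87 and 7.56 with LPS. It was called (-3.08 ± 0.74, limma adjusted p = 0.0103), but not without LPS array b (-2.62, adjusted p = 0.0541) nor after quantile normalization (-2.12, adjusted p = 0.245). Irf7, which amplifies interferon production, had 1.32, -1.62 and -0.70 with heme and LPS, against 3.89, 2.82 and 2.40 with LPS. Irf1 had 1.08, -0.08 and 0.36 with heme and LPS, against 2.93, 3.28 and 4.04 with LPS. Irf8, a factor of the monocyte lineage, was even at -1.90, -1.89 and -1.89 with heme and LPS, against 2.53, 1.13 and 1.01 with LPS and -0.02 to 0.02 on albumin arrays.

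Of 20 JAK-STAT and SOCS genes 9 fell and 1 rose, and 5 fell without LPS array a. Stat3, which carries signals of interleukin-6 and interleukin-10, stood at 0.08, 0.02 and 0.01 with heme and LPS, against 2.11, 1.97 and 1.62 with LPS. Usp18, which removes ISG15 and restrains the interferon receptor, had 2.85, -1.54 and -0.53 with heme and LPS, against 4.72, 3.88 and 3.82 with LPS. Among the SOCS genes, whose products restrain cytokine receptors, Socs7 and Socs5 moved in opposite directions. Socs7 had 0.25, -0.11 and -0.37 with heme and LPS, against 2.31, 1.96 and 2.06 with LPS (-2.19 ± 0.15), while Socs5 had 0.26, 1.26 and 1.04 with heme and LPS, against -1.69, -1.37 and -0.90 with LPS (2.17 ± 0.34).

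In MHC class I presentation 13 of 20 genes fell and 0 rose. The median difference was -1.32. Tap1, a subunit of the pump that loads peptides, had 0.65, -1.11 and -0.46 with heme and LPS, against 3.03, 2.63 and 2.33 with LPS. Psmb9, Psmb8 and Psmb10 are the catalytic subunits that turn the proteasome into the immunoproteasome. Psmb9 had -0.73, -1.44 and -1.34 with heme and LPS, against 2.22, 1.43 and 1.38 with LPS, and fell below the albumin arrays (0.12 to 0.19). Psmb10 had -0.01, -0.35 and -0.26 with heme and LPS, against 2.39, 1.62 and 1.45 with LPS. Psmb8 likewise fell by 2.04 with an SE of 0.37. Of 13 class II presentation genes 1 fell (2 without heme and LPS array c), where 6.35% of all genes tested fell. It was Ctss, the protease cathepsin S that trims the invariant chain (-0.93 ± 0.16). Cd83, a maturation marker that stabilises class II molecules on the surface, had -1.31, -0.61 and -1.04 with heme and LPS, against 3.21, 2.83 and 3.24 with LPS (-4.08 ± 0.22).

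**Figure D3:**
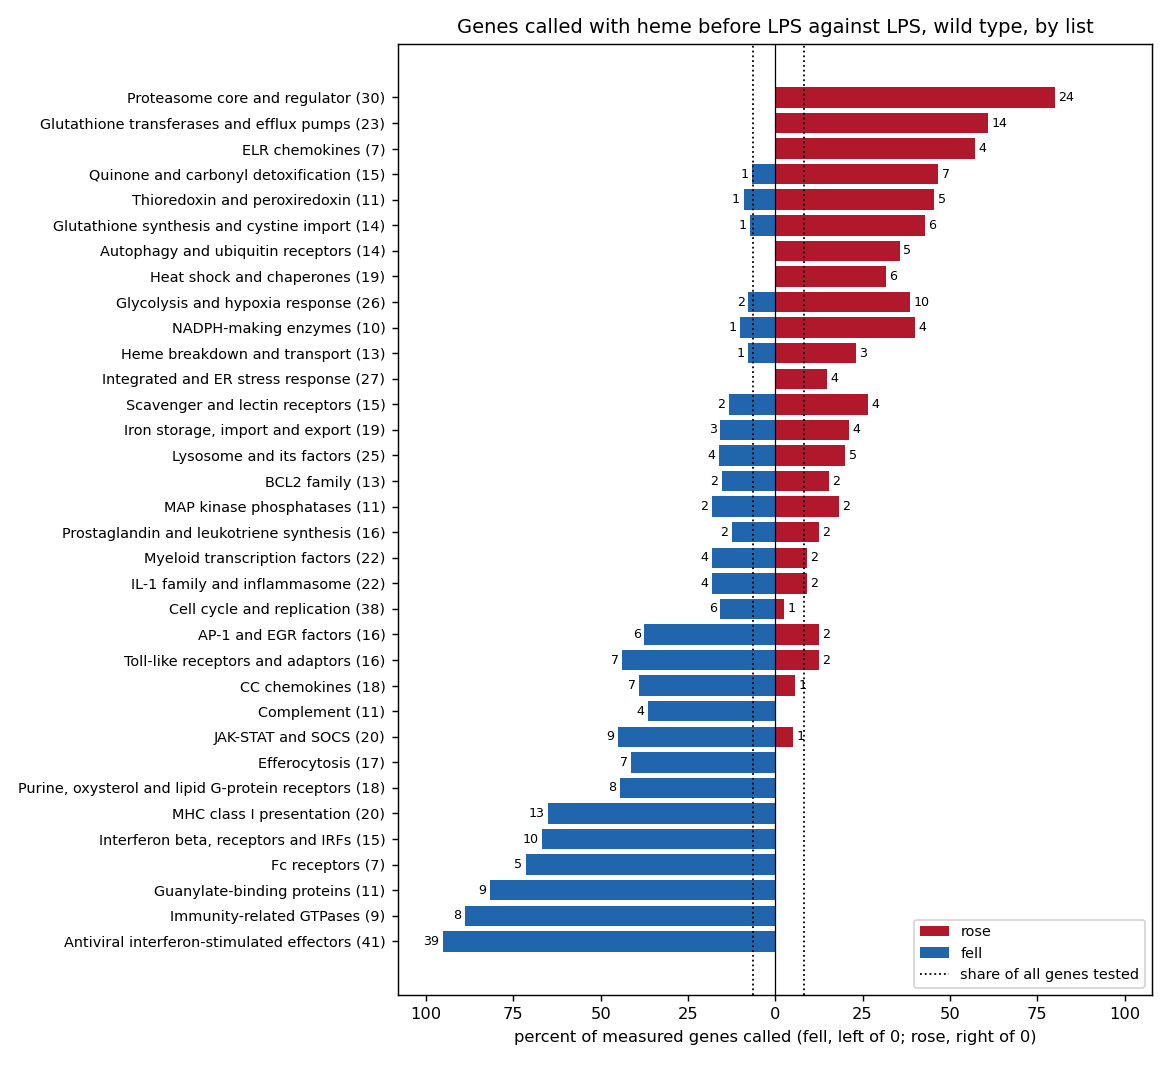
Percent of the measured genes of 34 gene lists (those with at least 4 called genes; number measured in brackets) that rose (red, right of 0) or fell (blue, left of 0) with heme before LPS against LPS; numbers at bar ends are genes. Dotted lines mark the shares over all genes tested, 8.34% higher and 6.35% lower. The proteasome list has the longest bar to the right (24 of 30) and the antiviral effectors the longest to the left (39 of 41).

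Inflammatory cytokine genes split. Tnf stood at 4.66, 4.25 and 4.67 with heme and LPS, against 4.79, 3.86 and 3.90 with LPS, and was not called (0.34 ± 0.21, limma adjusted p = 0.402). It was called without LPS array a (0.65, adjusted p = 0.0183) and after quantile normalization (1.06, adjusted p = 0.0283). Il1b had 7.66, 7.06 and 7.78 with heme and LPS, against 7.88, 7.63 and 7.45 with LPS, with groups that overlapped. Il6 had 9.0, 9.22 and 11.06 with heme and LPS, against 10.93, 11.59 and 10.35 with LPS, and was not called (-1.19 ± 0.57, limma adjusted p = 0.233), but was without heme and LPS array c (-1.84, adjusted p = 0.038). Il12b, the subunit shared by interleukin-12 and interleukin-23, had 2.09, 6.0 and 6.07 with heme and LPS, against 8.65, 8.44 and 8.17 with LPS. It fell by 3.71 with an SE of 0.85, and by 2.39 without array a, the lowest. On the 6 wild-type arrays alone Il12b was not called (limma adjusted p = 0.188). Il27, another subunit of that family, had 0.54, 0.72 and 0.86 with heme and LPS, against 3.14, 3.04 and 2.99 with LPS. Il10, the anti-inflammatory cytokine, had 3.18, 1.73 and 2.59 with heme and LPS, against 5.62, 5.03 and 4.59 with LPS. Nos2, the inducible nitric oxide synthase, had 2.13, 1.30 and 1.70 with heme and LPS, against 5.48, 5.50 and 5.38 with LPS.

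In the interleukin-1 family and the inflammasome 2 of 22 genes rose and 4 fell, and 1 rose without array b of either group, LPS array a or heme and LPS array c. Over all genes tested 8.34% rose and 6.35% fell. Il18, a cytokine that the inflammasome activates, stood at 0.08, 0.26 and 0.54 with heme and LPS, against 3.31, 2.97 and 2.58 with LPS, where albumin arrays had 0.07 to 0.15. Pycard, the adaptor ASC that joins sensor and caspase, had -2.47, -1.88 and -2.20 with heme and LPS, against 0.62, -0.40 and -0.49 with LPS, below albumin (0.14 to 0.18). Aim2, a sensor of cytosolic DNA, had 0.40, 0.36 and -0.06 with heme and LPS, against 2.24, 2.14 and 2.07 with LPS. Gsdmd, which forms the pore of pyroptosis, fell by 1.47 with an SE of 0.26. Il1f9, an interleukin-36 gene, was a riser, with 3.01, 4.51 and 5.17 with heme and LPS against 0, 1.05 and 1.92 with LPS. Tnfsf10 and Tnfsf15, death ligand genes of the TNF superfamily, were the 2 of 12 of that list that fell. Tnfsf10, TRAIL, had 2.71, -1.75 and -0.41 with heme and LPS, against 7.36, 6.21 and 6.04 with LPS. Tnfsf15, TL1A, fell by 2.10 with an SE of 0.35, and by 1.18 after quantile normalization.

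Chemokine genes moved in both directions. In the list named ELR chemokines, most of which draw neutrophils through CXCR2, 4 of 7 genes rose and 0 fell, Pf4 being 1 of the 4. Cxcl5 had 8.73, 11.11 and 10.77 with heme and LPS, against 0, 2.86 and 4.62 with LPS, while each of the 3 albumin arrays listed it at 0. Cxcl2 had 9.82, 8.15 and 9.16 with heme and LPS, against 6.26, 6.40 and 6.41 with LPS, and its call (2.69 ± 0.57, limma adjusted p = 0.00444) was lost when array a of each LPS-treated group was dropped (2.25, adjusted p = 0.0559). Ppbp, the precursor of platelet basic protein, had 4.78, 3.83 and 3.95 with heme and LPS, against 0.35, -0.43 and 0.08 with LPS (4.19 ± 0.34). Pf4, platelet factor 4, listed with them as a gene of that cluster and not as an ELR chemokine, rose by 1.17 ± 0.23. In the neutrophil marker list, which holds neither of these chemokines, 2 of 12 genes rose. They were S100a8 (2.66, 4.14 and 3.70 with heme and LPS, against 0.79, 1.71 and 1.86 with LPS) and Elane (0.93, 0.93 and 0.99 with heme and LPS, against -0.32, -0.09 and 0.02 with LPS). S100a8 was not called without heme and LPS array b (adjusted p = 0.0509) or LPS array a (0.0549), and Elane not with array a of each LPS-treated group dropped (0.0754). The linear ratios of the list summed to 19.5 to 40.8 with heme and LPS, against 12.96 to 21.7 with LPS, its defining marker Ly6g stood at 0 to 0.65 with heme and LPS and at 0 to 0.62 with LPS, and the part of such cells in the chemokine result was not tested.

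A list of 8 genes held CXCR3 ligands, other CXC chemokines and the CX3C chemokine gene Cx3cl1. Of these 2 fell, Cxcl9 and Cx3cl1, and 0 rose (3 fell without heme and LPS array a). Cxcl9, a CXCR3 ligand for T cells, had 2.83, 1.27 and 1.55 with heme and LPS, against 5.93, 5.84 and 5.79 with LPS, with probes at -5.32 and -2.62. Cxcl10, of the same class, had 9.86, 4.18 and 4.20 with heme and LPS, against 11.69, 8.87 and 8.79 with LPS, so that array a with heme overlapped the LPS group. It was not called (-3.70 ± 1.24, limma adjusted p = 0.0634) but was without heme and LPS array a (-5.60, adjusted p = 0.000578). Cx3cl1, a membrane-bound chemokine, had 1.0, 0.83 and 1.35 with heme and LPS, against 4.19, 4.24 and 4.09 with LPS. Of 18 CC chemokines 7 fell and 1 rose, where 6.35% of all genes tested fell and 8.34% rose. The falls were 4 without heme and LPS array b or c or LPS array a, and the rise was lost without heme and LPS array a or LPS array b or c. Ccl8 had 0.12, -0.32 and -0.28 with heme and LPS, against 5.95, 5.45 and 4.21 with LPS. Ccl7 had 3.09, -2.73 and -3.59 with heme and LPS, against 6.22, 3.47 and 3.79 with LPS, and Ccl12 2.85, -2.14 and -1.08 with heme and LPS, against 8.37, 4.48 and 4.23 with LPS. Both lay below albumin (-0.48 to -0.40 for Ccl7, 0.69 to 0.77 for Ccl12) on arrays b and c and above it on array a. Neither was called on the 6 wild-type arrays alone (limma adjusted p = 0.244 for Ccl7 and 0.178 for Ccl12). Ccl5, RANTES, had 4.86, 4.07 and 4.96 with heme and LPS, against 4.86, 5.01 and 4.63 with LPS, and was not called (limma adjusted p = 0.818).

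**Figure D4:**
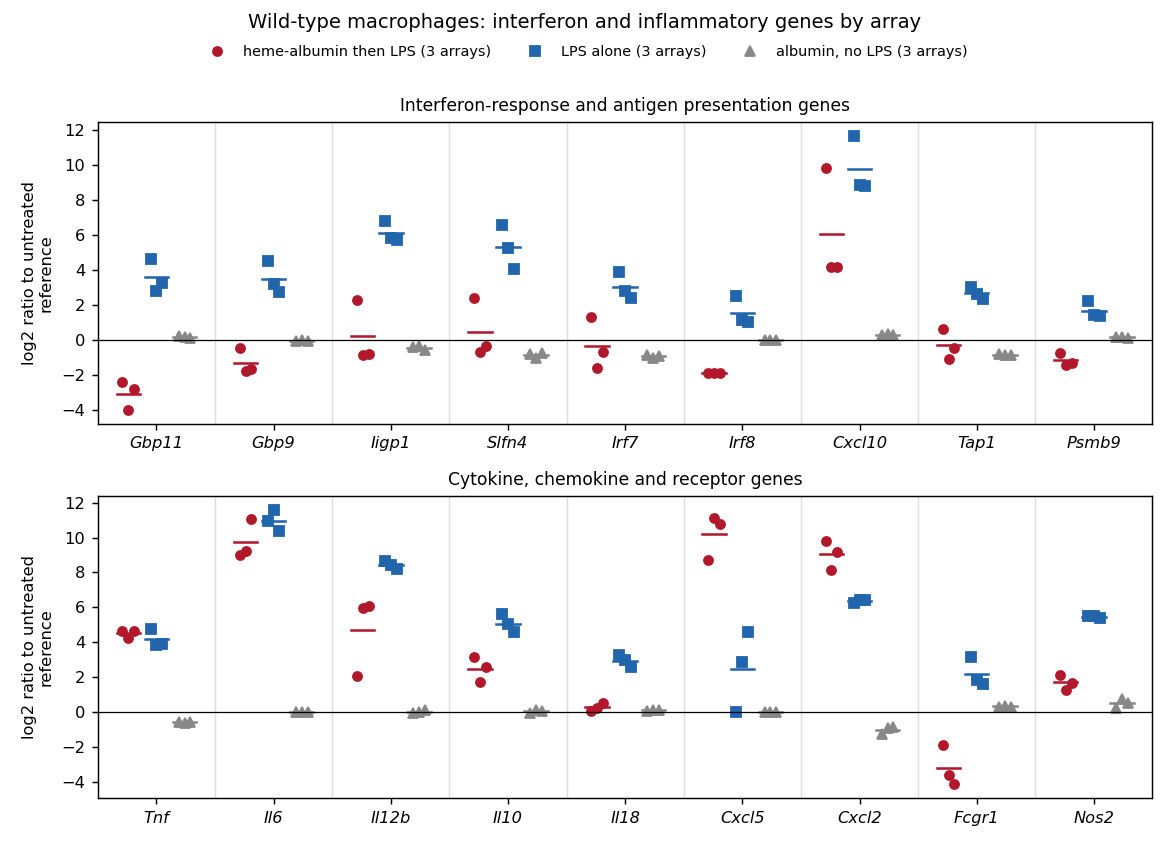
Log2 ratio to the untreated reference (vertical axis) of 18 interferon and inflammatory genes on each wild-type array, drawn as in the plot of heme genes. Red circles (heme-albumin then LPS) lie below blue squares (LPS) for the interferon genes, except that array a of Cxcl10 at 9.86 lies within the squares; Tnf and Il6 overlap, and Cxcl5 and Cxcl2 lie above.

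Fc, Toll-like and G-protein receptor genes fell more often than they rose. Of 7 Fc receptors, which bind antibody-coated targets, 5 fell. Fcgr1, the high-affinity IgG receptor, had -1.85, -3.57 and -4.11 with heme and LPS, against 3.15, 1.85 and 1.62 with LPS and 0.32 to 0.36 on albumin arrays. Fcgr4 had -1.24, -0.86 and -0.64 with heme and LPS, against 2.47, 2.52 and 2.10 with LPS. Fcgr3 fell by 1.68 with an SE of 0.31, and Fcgr2b, the inhibitory receptor, by 1.51 with an SE of 0.31. Of 16 Toll-like receptor and adaptor genes 7 fell and 2 rose, with 4 falls without heme and LPS array a or without LPS array b or c. Tlr3, a sensor of double-stranded RNA, had -0.81, -1.42 and -2.48 with heme and LPS, against 5.19, 3.08 and 2.82 with LPS. Myd88, the adaptor of most of these receptors, had 0.79, 0.46 and 0.76 with heme and LPS, against 2.31, 2.07 and 1.79 with LPS. Tlr13, a sensor of bacterial ribosomal RNA, rose by 2.38 ± 0.39, to -0.39, 0.25 and 0.13 with heme and LPS, against -2.87, -2.30 and -1.97 with LPS, so that it stood near the albumin arrays (0.07 to 0.13).

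Of 15 scavenger and lectin receptors 4 rose and 2 fell, the falls being 0 without heme and LPS array a and 1 without LPS array b or c. Clec7a, the beta-glucan receptor, had 1.23, 4.02 and 4.31 with heme and LPS, against -1.34, 0.25 and 0.11 with LPS. Clec4n, dectin-2, had 1.69, 2.02 and 2.33 with heme and LPS, against -0.08, 0.18 and -0.30 with LPS, and Cd36, a receptor of oxidised lipid, 0.77, 0.70 and 0.69 with heme and LPS, against -0.85, -0.76 and -0.36 with LPS. Efferocytosis genes, for the uptake of dead cells, fell in 7 of 17 cases and rose in 0. Axl, a receptor kinase of that process, had -0.69, -0.89 and -0.36 with heme and LPS, against 2.41, 1.37 and 1.87 with LPS. Itgb5, an integrin subunit, fell by 1.64 with an SE of 0.31. Of 18 G-protein receptors for purines, oxysterols and lipids 8 fell and 0 rose, 5 without LPS array b. P2ry14, a receptor of UDP-sugars, had -2.89, -1.27 and -1.28 with heme and LPS, against 1.56, 1.82 and 1.39 with LPS. The ADP receptors P2ry13 (-3.13, -1.73 and -2.38 with heme and LPS, against 1.14, 0.26 and 0.38 with LPS) and P2ry12 (-3.19, -2.50 and -2.22 with heme and LPS, against -0.73, -0.89 and -0.56 with LPS) fell as well. In the complement list 4 of 11 genes fell, 2 without LPS array b, among them C4b (-1.85 ± 0.37) and C3ar1, the receptor of the fragment C3a (-1.03 ± 0.24).

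Of 22 transcription factors of the myeloid lineage 2 rose, Spic and Cebpa, and 4 fell (6 without heme and LPS array a). Cebpa had -0.66, 1.85 and 1.69 with heme and LPS, against -4.28, -3.32 and -2.87 with LPS, and its relative Cebpd 0.75, 0.52 and 0.65 with heme and LPS, against 3.98, 3.87 and 3.47 with LPS. For Cebpa the albumin arrays (-1.92 to -1.82) lay between the groups. Fosl1, an AP-1 subunit, had 3.44, 3.60 and 4.35 with heme and LPS, against 0, -0.64 and -0.06 with LPS. The MAP kinase phosphatases Dusp4 and Dusp2 moved in opposite directions: Dusp4 rose by 3.13 ± 0.65, to 1.42, 1.16 and 1.14 with heme and LPS, against -3.17, -1.23 and -1.29 with LPS. Dusp2 had 2.78, 3.00 and 3.02 with heme and LPS, against 5.91, 5.56 and 5.85 with LPS, and fell by 2.84 with an SE of 0.24, or by 1.86 after quantile normalization.

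The median of the cell cycle list was low under LPS and lower with heme, though Ccnd2 and Tyms stood above the reference with LPS. The median over 38 genes was -2.17, -1.71 and -1.99 on the heme and LPS arrays, against -1.14, -1.13 and -1.12 on the LPS arrays and -0.22 to -0.17 on albumin arrays, but only 6 genes were called lower and 1 higher. Ccnd2, cyclin D2, had 0.62, -1.39 and -1.15 with heme and LPS, against 4.00, 2.39 and 1.91 with LPS. Ccnd3 had -3.34, -2.16 and -2.53 with heme and LPS, against -0.76, -1.12 and -1.20 with LPS, and Tyms, thymidylate synthase, 1.08, 0.10 and 0.16 with heme and LPS, against 3.11, 2.25 and 2.38 with LPS. Mcm6, a subunit of the replicative helicase, fell by 1.47 with an SE of 0.34. Cdkn2a, which encodes the cell cycle inhibitor p16, was the riser (1.69 ± 0.25; 2 risers without LPS array a). Rrm1, a ribonucleotide reductase subunit, had -5.82, -1.83 and -2.20 with heme and LPS, against -1.13, -0.83 and -0.84 with LPS, and was not called with array a so far below the other arrays (limma adjusted p = 0.115).

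Among genes of lipid and energy metabolism, 3 of 14 LXR targets and efflux genes fell and 0 rose. Abcg1, a cholesterol exporter, had -5.96, -4.77 and -5.25 with heme and LPS, against -0.97, -0.61 and -0.97 with LPS (-4.48 ± 0.42), and Nr1h3, the LXR alpha receptor, -1.40, -0.83 and -0.57 with heme and LPS, against 1.17, 0.93 and 0.70 with LPS. Both thus stood below the albumin arrays, at -0.65 to -0.58 for Abcg1 and 0.42 to 0.49 for Nr1h3. Of 19 cholesterol synthesis and uptake genes 0 rose and 0 fell in the limma fit (0 rose and 1 fell at an unadjusted p under 0.05), and of 27 respiratory chain subunits 1 rose and 1 fell. That fall was 0 without LPS array a or heme and LPS array c, and 2 without array b of either group. Glycolysis and hypoxia genes rose in 10 of 26 cases and fell in 2, the falls being 0 without LPS array a, 1 without array b of either group and 4 without LPS array c. Slc2a1, the glucose transporter GLUT1, had 3.24, 2.56 and 2.68 with heme and LPS, against 1.81, 0.79 and 0.76 with LPS, and Egln3, an oxygen-sensing hydroxylase, 0.12, 0.77 and 1.82 with heme and LPS, against -0.35, -1.61 and -1.31 with LPS.

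Among NF-kB subunits and inhibitors 2 of 12 genes fell and 0 rose, or 1 without LPS array a. Rela, the p65 subunit, had 0.10, 0.24 and 0.11 with heme and LPS, against 1.18, 1.12 and 0.87 with LPS (-0.91 ± 0.19). Maf, a factor that drives Il10, is in the list of Il10 and its drivers, in which 3 of 9 genes fell. It had -3.72, -3.41 and -3.27 with heme and LPS, against -1.08, -0.75 and -0.94 with LPS (-2.55 ± 0.21).

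Genes of survival, lysosome and lipid mediators were mixed. In the BCL2 family 2 of 13 genes rose (1 without LPS array c) and 2 fell. Bcl2l1, which encodes the survival protein BCL-XL, had -1.43, -2.08 and -2.60 with heme and LPS, against -0.16, -0.49 and -0.66 with LPS. Bcl2l2, which encodes BCL-W, another survival protein, rose by 0.76 ± 0.11. Of 25 lysosome genes 5 rose and 4 fell, and 2 rose without LPS array a or heme and LPS array b or c. Npc2, which moves cholesterol out of the lysosome, fell by 0.86 with an SE of 0.14. Of 16 genes of prostaglandin and leukotriene synthesis 2 rose and 2 fell. Hpgds, the hematopoietic prostaglandin D synthase, had -3.77, -2.25 and -2.74 with heme and LPS, against -1.32, -0.51 and -0.47 with LPS, and Alox5ap, the 5-lipoxygenase activating protein, 0.17, 0.49 and 0.21 with heme and LPS, against -0.63, -0.39 and -0.18 with LPS.

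The 15 largest rises among genes never listed at 0 ran between 4.49 and 5.94. Several were genes that stood low under LPS. Tacc2, a centrosome-associated coiled-coil gene, had 3.60, 2.42 and 2.69 with heme and LPS, against -4.14, -2.70 and -2.27 with LPS and 0.08 to 0.15 on albumin arrays. Fam13a had 3.58, 2.82 and 3.36 with heme and LPS, against -2.16, -3.25 and -1.90 with LPS, and Smyd4, a SET domain gene, 2.38, 2.10 and 2.08 with heme and LPS, against -1.89, -4.63 and -2.84 with LPS. Fam214a rose by 4.49 ± 0.43 and still stood below the reference, at -2.62, -1.55 and -1.45 with heme and LPS, against -6.78, -5.61 and -6.70 with LPS and 0.04 to 0.20 on albumin arrays. Pfn2, an actin-binding profilin, had 4.64, 3.78 and 4.97 with heme and LPS, against -0.63, -1.68 and -0.87 with LPS. Mllt11 had 4.21, 3.81 and 4.28 with heme and LPS, against -0.76, -0.47 and -0.00 with LPS, and Slc22a4, a transporter of the antioxidant ergothioneine, 5.01, 2.78 and 3.08 with heme and LPS, against -1.72, -0.89 and -0.81 with LPS.

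The 15 largest falls of the same kind ran between -7.05 and -5.21. Fgl2, a prothrombinase, led them with 0.67, -0.77 and -0.37 with heme and LPS, against 7.76, 6.60 and 6.30 with LPS (132-fold). Its heme and LPS values lay around those of the albumin arrays (0.20 to 0.29). Calhm6, a gene of the calcium homeostasis modulator family, had 1.49, 0.47 and 0.77 with heme and LPS, against 6.54, 6.62 and 6.55 with LPS. Lhx2, a LIM-homeobox factor gene, had 1.71, 0.05 and 0.25 with heme and LPS, against 7.38, 5.06 and 6.48 with LPS. Themis2, an adaptor gene of leukocyte receptor signalling, had -1.70, -2.74 and -2.29 with heme and LPS, against 3.09, 2.96 and 2.85 with LPS and against -1.18 to -1.09 on albumin arrays. Edn1, endothelin 1, a vasoconstrictor peptide, fell by 4.50 with an SE of 0.55, with 1.23, 3.84 and 3.43 with heme and LPS, against 7.66, 7.17 and 7.19 with LPS.

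Markers of other cells were looked at beside these results. B cell, T and NK cell, erythroid, dendritic cell, mast cell and stromal lists had at most 1 called gene in each direction. Of the B cell list Blnk, an adaptor also used in macrophages, fell (-3.44, -2.66 and -2.60 with heme and LPS, against -1.39, -0.21 and -0.29 with LPS), while Ms4a1, which encodes CD20, was listed at exactly 0 on all 6 arrays. Acta2, smooth muscle actin, rose by 1.71 ± 0.39 in the stromal list.

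The difference with heme was also tested against that in Nrf2-/- macrophages, which share no array with it. Every one of the 9 knockout arrays listed Nfe2l2 at 0. The wild-type difference minus the knockout difference was called above 0 for 159 genes (0.707% of those tested) and below 0 for 54 (0.24%). Leaving out 1 array gave 101 to 210 and 34 to 123 genes, with 101 above 0 without wild-type LPS array b, 104 without wild-type heme and LPS array c, and 104 or 123 below 0 without wild-type heme and LPS array a or knockout heme and LPS array b. With the replicate letter as a block, 105 differences between genotypes were above 0 and 36 below, and those of Nqo1 (2.62, limma adjusted p = 0.104), Abcc4 (2.59, 0.0602), Cat (1.77, 0.0602) and Edn1 (-4.36, 0.0692), called without the block, were not called. Of the heme handling and glutathione genes Hmox1 rose in the knockout too, by 4.01 ± 0.28, and the difference between genotypes, 0.90 ± 0.44, was not called (limma adjusted p = 0.674). Nor was it for Srxn1 (3.95 ± 0.31 in the knockout) and Gclm (3.28 ± 0.33). In the glutathione list 2 of 14 genes rose more in wild type (1 with the replicate block). One was Gss, whose rise in wild type stood beside 0.28 ± 0.12 in the knockout, whose heme and LPS arrays lay at -0.22 to 0.26 and LPS arrays at -0.31 to 0.00 (2.58 ± 0.19, limma adjusted p = 7.8e-06). The other was Gclc (2.85 ± 0.62, limma adjusted p = 0.043), which rose in the knockout too (2.46 ± 0.39).

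Of the 23 glutathione transferases and pumps 6 rose more in wild type and 0 less (3 and 0 with the replicate block), and the list's median difference with heme was 1.15 in wild type and 0.00 in the knockout. Gsta3 stood at -1.39 to 0.00 on the knockout heme and LPS arrays and -0.88 to 0.06 on the knockout LPS arrays (-0.14 ± 0.36), Abcc4 differed there by 0.00 ± 0.25 and Abcc1 by 0.67 ± 0.17. Ptgr1 had -0.75 to -0.07 with heme and LPS in the knockout, against -0.25 to -0.12 with LPS, and its difference between genotypes (3.48 ± 0.16) was the most narrowly measured of those shown. Nqo1 had 0.00 to 1.15 with heme and LPS, against -0.75 to 0.07 with LPS, in the knockout. Proteasome genes did not follow this: 24 rose in wild type, 0 of 30 differed between genotypes in the limma fit (2 above 0 and 0 below at an unadjusted p under 0.05), and the median difference was 1.17 in wild type and 0.92 in the knockout. Ppbp, Fam13a, Fech and Taldo1 also rose more in wild type, as did Cat in the fit without the block. So, among others, did Cxcl5 (6.11 ± 1.28, limma adjusted p = 0.0375), Il1f9 (3.34 ± 0.64, 0.0211), Tacc2 (3.06 ± 0.62, 0.029), Fam214a (2.61 ± 0.55, 0.0385) and Prdx1 (1.70 ± 0.34, 0.0294) in that fit. With the block 1 of 7 genes in the ELR chemokine list rose more in wild type, and 0 genes of the lists of Il1f9 and Prdx1.

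Among the falls, Cd83, Themis2, Cebpd, Cx3cl1, Dusp2 and Nos2 fell more in wild type, and Edn1 did in the fit without the block. In that fit so, among others, did Fgl2 (-3.74 ± 0.70, limma adjusted p = 0.0187), Maf (-1.47 ± 0.27, 0.0161), Socs7 (-1.18 ± 0.20, 0.00833) and Hmox2 (-0.78 ± 0.17, 0.0442). With the block 0 genes of the lists of Socs7 and Hmox2 fell more in wild type. Edn1 stood at 6.75 to 8.21 with heme and LPS in the knockout, against 7.16 to 8.08 with LPS (0.00 ± 0.45). Nos2 stood at 3.71 to 6.01 in the knockout with heme and LPS, against 5.47 to 6.20 with LPS; its difference between genotypes (-2.96 ± 0.53, limma adjusted p = 0.0144) was not called with array a of each LPS-treated group dropped (adjusted p = 0.0851). Cx3cl1 stood at 4.00 to 5.84 with heme and LPS in the knockout, against 4.20 to 5.29 with LPS. The interferon lists were lower with heme in both genotypes, with median differences of -3.76 in wild type and -1.69 in the knockout for guanylate-binding proteins, -3.62 in wild type and -1.33 in the knockout for immunity-related GTPases, and -2.47 in wild type and -1.04 in the knockout for antiviral effectors. In these lists 0 of 11, 0 of 9 and 1 of 41 genes differed between genotypes in the limma fit, while 6 of 11, 7 of 9 and 16 of 41 lay below 0, and 1 guanylate-binding protein above it, at an unadjusted p under 0.05.

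**Figure D5:**
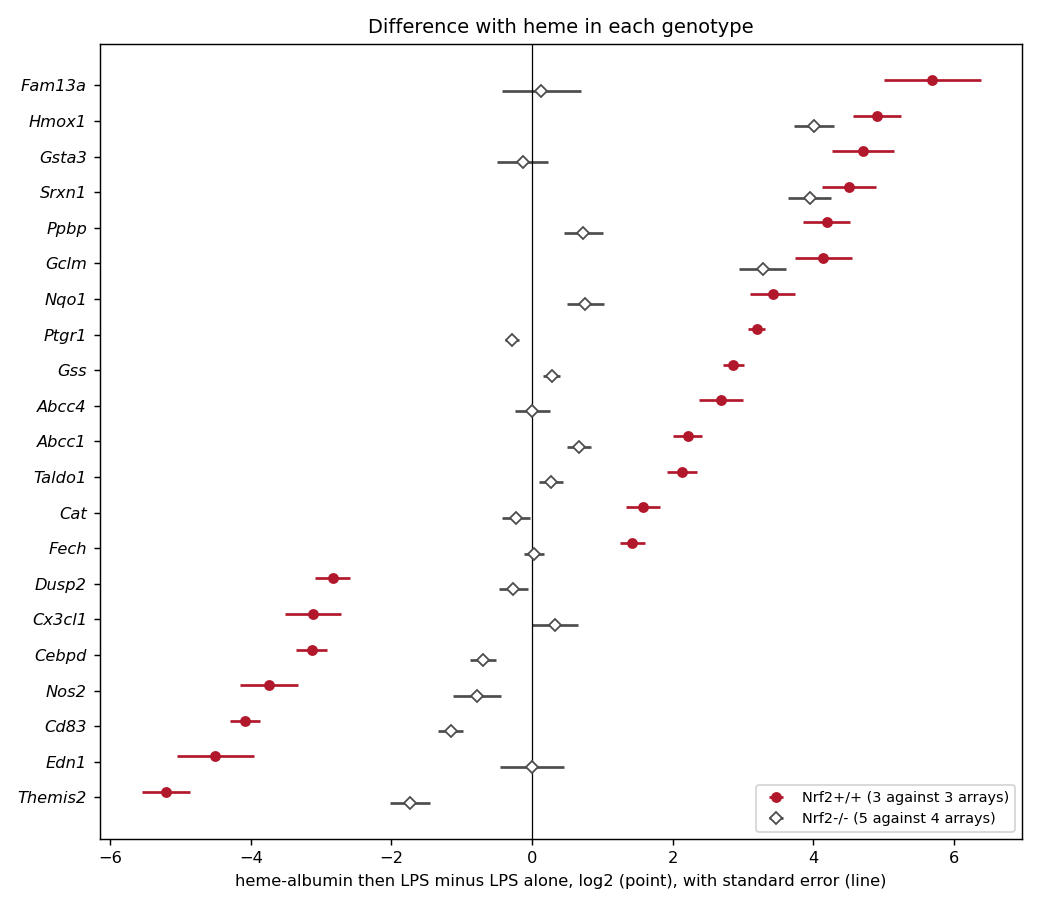
Difference between heme-albumin then LPS and LPS alone (log2, horizontal axis) of 21 genes in Nrf2+/+ (red circles, 3 against 3 arrays) and Nrf2-/- macrophages (open diamonds, 5 against 4 arrays), with standard errors as lines. Hmox1, Srxn1 and Gclm have both points well above 0, while Gsta3, Abcc4, Ptgr1 and Edn1 have the diamond near 0.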

How the data were processed

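Expression was measured on Agilent 2-colour arrays in 18 samples. The authors deposited 1 value table of 44397 features, and its values were read as log10 ratios of sample (Cy5) over untreated reference (Cy3), from their form and range, and from the dyes given per the labels; the base of the logarithm is an inference. Agilent Feature Extraction 10.5.1.1 is named in the submitters' processing notes; the sources used here give no other step. Features had no missing value, but many were listed at exactly 0, and signal and background per spot were not used here, so that no value could be tested for being above background. The number of arrays limits the precision.

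Multiplied onto a log2 scale, the values of the probes of a gene were averaged, with gene symbols from the platform annotation (33026 features with 1 symbol, 11371 without; 22485 genes, 16347 of them with 1 probe; 32438 probes matched RefSeq by gene identifier). A fit of 5 group means over 18 arrays was made with limma 3.58.1 in R 4.3.3 (lmFit, eBayes, two-sided, Benjamini-Hochberg over all genes, threshold 0.05) and tested on simulated data. Tables and figures were made with Python 3.11.15, pandas 2.3.3 and matplotlib 3.10.9. Promoter windows of RefSeq genes on GRCm38.p6 were searched for spelled motifs on both strands.

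The genes, the 55 gene lists and 8 marker lists were chosen with earlier results of these data known, so that no list is independent evidence. Named were 14 genes of heme handling and inflammation, the 15 largest rises and 15 largest falls without overlap or a value of 0, up to 4 risers, 4 fallers and 2 uncalled members of each list, and the largest differences between genotypes among these; genes shown are a selection from them. Alternatives were a fit on fewer arrays, quantile normalization, median centring, zeros as missing, a filter on zeros, single probes (for a gene, the one with the highest mean absolute ratio), array weights, a trended and robust spread, a 2-fold minimum, the replicate letter as a block, the LPS-treated arrays lettered a left out, and each LPS-treated array left out. Whether arrays of the same letter belong together was checked by the correlation of their deviations from group means. It was 0.53, 0.23 and 0.24 for letters a to c between the genotypes with heme and LPS, against -0.37 to 0.086 for unlike letters. With LPS it was 0.58, 0.20 and 0.23, against -0.41 to 0.12. Letters thus went together between genotypes. Between the knockout groups it was 0.22 to 0.59, but b with c had 0.36 and c with b 0.32, so that only letters a and d stood out. Between the wild-type heme and LPS and LPS groups letter a had 0.48, against -0.34 to -0.23 for heme and LPS array a with unlike letters. Letters b and c had 0.012 and 0.014, below b with c (0.36) and c with b (0.32). Only letter a tied those arrays. The labels do not say what a letter marks.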

Additional observations from a re-analysis of the deposited data

Results flagged for a closer look

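The difference with heme (heme and LPS minus LPS) was compared between Nrf2+/+ and Nrf2-/- macrophages for the 21 genes plotted in both genotypes. For 18 of them the wild-type minus the knockout difference passed its own test in the limma fit. The groups compared held 6 wild-type and 9 knockout arrays that had LPS. The 21 genes were chosen with these differences known, so that 18 of 21 is not a rate. Over all genes tested 159 (0.707%) were called above 0 and 54 (0.24%) below. Values are on the log2 scale with their standard errors, and a positive one means that the wild-type difference was the more positive. They come from the fit without the replicate letter; with it as a block Nqo1 (adjusted p = 0.104), Abcc4 (0.0602), Cat (0.0602) and Edn1 (0.0692) were not called.

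Glutathione and conjugation genes were above 0. The value was 4.84 ± 0.57 for Gsta3 (adjusted p = 0.000813), 2.58 ± 0.19 for Gss (7.8e-06), 2.68 ± 0.40 for Abcc4 (0.00409) and 1.54 ± 0.27 for Abcc1 (0.0107). Reductases and metabolic enzymes were above 0 too, with 3.48 ± 0.16 for Ptgr1 (adjusted p = 5.42e-08), 2.67 ± 0.41 for Nqo1 (0.00515), 1.81 ± 0.31 for Cat (0.0107), 1.86 ± 0.27 for Taldo1 (0.00319) and 1.39 ± 0.22 for Fech (0.00678). Fam13a had 5.56 ± 0.89 (adjusted p = 0.00656), and the chemokine gene Ppbp had 3.46 ± 0.44 (0.00126).

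Values below 0 belonged to genes that fell with heme in wild type. Edn1 had -4.50 ± 0.72 (adjusted p = 0.00622), Themis2 -3.47 ± 0.44 (0.00137), Cx3cl1 -3.44 ± 0.51 (0.00409), Nos2 -2.96 ± 0.53 (0.0144) and Cd83 -2.92 ± 0.28 (0.000124). Dusp2 had -2.57 ± 0.32 (adjusted p = 0.00113) and Cebpd -2.43 ± 0.29 (0.000813). In 42 sets of 4 or 5 knockout arrays of one group, over these 21 genes, 0 held an array far from the others.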

How the results depend on the processing

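Of 144 called genes named, 98 kept the call under every alternative run and 141 whichever 1 array was left out (Ifnb1, Slc7a11 and S100a8 did not). Among the 144, 0 changed direction. Of the 18 called differences between genotypes among the 21 genes plotted in both, 13 kept the call throughout. Genes higher and lower with heme in wild type numbered 1001 and 941 with a 2-fold minimum, 902 and 643 on the 6 wild-type arrays alone and 2938 and 2402 with array weights, and 1467 to 1951 and 1057 to 1525 with 1 array left out. Differences between genotypes above and below 0 numbered 90 and 26 on the LPS-treated arrays alone, 543 and 336 with array weights, and 101 to 210 and 34 to 123 with 1 array left out. Those below 0 were 89 among the 11688 genes not at 0 on 3 arrays of each group, and 85 without the LPS-treated arrays lettered a. With the replicate letter as a block 105 differences between genotypes were above 0. Among the 21 genes plotted in both genotypes it changed the call of the 4 given with the genotypes only (Nqo1, Abcc4, Cat and Edn1). Among the wild-type differences of the genes named it changed only that of Isg15, which was then called lower with heme (-2.04, limma adjusted p = 0.0475). The difference between genotypes of Nos2 lost its call without the LPS-treated arrays lettered a, while its wild-type fall kept the call. The wild-type differences that lost the call there were those of Slc7a11, Cxcl2 and Elane. Il1b, not called, changed direction with quantile normalization (0.44), array weights (0.052) and single probes (0.38), and ranged over -0.30 to 0.065 with 1 array left out. Ccl5, not called, did so with quantile normalization (0.54), and ranged over -0.37 to 0.078 with 1 array left out. The cause was not tested. No scaling moved the median of all genes by over 0.1. Probes of near-identical genes can share targets, values of exactly 0 cannot be told from a level equal to the reference, and a ratio gives no signal over background.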
